A study of Mus musculus with 36 samples.

Results

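The 9 genes studied here serve the hormone-secreting cells of the pancreatic islets, and were followed across peak lists of K4me3 and K27me3 from whole mouse pancreas. They are the hormone genes Ins1, Ins2, Gcg, Sst, Ppy and Iapp, the granule protein gene Chga, and the convertase genes Pcsk1 and Pcsk2. The 9 genes were taken by name, out of 21951 protein-coding genes of the GENCODE vM21 annotation of mm10. A gene was called for a mark in a mouse when a peak reached within 3 kb of any of its annotated transcription start sites (TSSs), and the part of the gene body covered by peaks was measured as well.

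The peaks came from 6 mice, 3 for each of 2 genotypes, with K4me3 and K27me3 profiled in every mouse by ChIP-Seq, in which an antibody to a modified histone recovers the DNA bound to it. Control mice are labelled wild type and, per the study's methods, were C57BL/6 mice or carried only Mist1creERT. EZH2ΔSET mice carried Mist1creERT and lost the catalytic SET domain of EZH2, the methyltransferase that places K27me3. All mice were 2 to 4 months old when they received tamoxifen, and tissue was taken 22 days after it. Mist1creERT is active in acinar cells, which make digestive enzymes and form most of the organ. The islet cells that transcribe the 9 genes are a small fraction of the tissue and are not a target of this driver. In whole tissue, a mark in few cells and a weak mark in many cells cannot be told apart.

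Islet hormones are made as precursors that are cut by the convertases PCSK1 and PCSK2, packed into dense-core granules together with chromogranin A, and released on demand. Beta cells make insulin (from Ins1 and Ins2 in the mouse) and amylin (Iapp), alpha cells make glucagon (Gcg), delta cells make somatostatin (Sst), and PP cells make pancreatic polypeptide (Ppy). K4me3 marks the starts of genes that are active or poised, K27me3 is placed by Polycomb repressive complex PRC2 over silent developmental genes and genes of other lineages, and CpG-rich starts often carry K4me3 while CpG-poor starts of tissue-restricted genes often carry neither.

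The DNA just upstream of the starts is shown for 6 of the genes, because they carried K4me3 in every mouse (Pcsk1), K27me3 in every mouse (Pcsk2 and Iapp) or in all but 1 (Ins1), or neither mark in all but 1 mouse (Gcg and Chga). Each line gives the 250 bases before the RefSeq start on GRCm38.p6, 5′ to 3′ on the strand of the gene, and the capitals mark CG dinucleotides.
Pcsk1, chr13:75089607-75089856, plus strand: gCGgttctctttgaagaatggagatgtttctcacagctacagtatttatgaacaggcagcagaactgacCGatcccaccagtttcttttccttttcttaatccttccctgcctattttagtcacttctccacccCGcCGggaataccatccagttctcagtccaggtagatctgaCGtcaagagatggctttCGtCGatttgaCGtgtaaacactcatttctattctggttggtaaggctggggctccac
Pcsk2, chr2:143545883-143546132, plus strand: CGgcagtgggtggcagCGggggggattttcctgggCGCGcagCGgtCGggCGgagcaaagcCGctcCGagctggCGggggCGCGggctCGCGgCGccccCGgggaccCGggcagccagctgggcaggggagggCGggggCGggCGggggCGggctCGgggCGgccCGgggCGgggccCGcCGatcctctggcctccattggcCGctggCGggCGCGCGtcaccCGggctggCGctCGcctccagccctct
Iapp, chr6:142298175-142298424, plus strand: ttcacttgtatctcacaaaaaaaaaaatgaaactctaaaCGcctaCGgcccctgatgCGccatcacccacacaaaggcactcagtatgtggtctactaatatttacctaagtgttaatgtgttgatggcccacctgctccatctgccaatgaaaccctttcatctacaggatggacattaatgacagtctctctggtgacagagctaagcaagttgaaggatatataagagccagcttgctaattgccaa
Ins1, chr19:52264047-52264296, plus strand: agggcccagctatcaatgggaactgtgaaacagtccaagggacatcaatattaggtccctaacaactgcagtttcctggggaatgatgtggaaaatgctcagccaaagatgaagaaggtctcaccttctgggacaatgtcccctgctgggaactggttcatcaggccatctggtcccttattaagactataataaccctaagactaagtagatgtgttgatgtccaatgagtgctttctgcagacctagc
Gcg, chr2:62483654-62483903, minus strand: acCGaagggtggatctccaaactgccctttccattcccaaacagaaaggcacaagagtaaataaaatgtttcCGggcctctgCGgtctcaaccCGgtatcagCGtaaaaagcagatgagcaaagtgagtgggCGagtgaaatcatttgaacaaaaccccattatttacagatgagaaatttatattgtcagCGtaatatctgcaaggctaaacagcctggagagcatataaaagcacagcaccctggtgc
Chga, chr12:102554691-102554940, plus strand: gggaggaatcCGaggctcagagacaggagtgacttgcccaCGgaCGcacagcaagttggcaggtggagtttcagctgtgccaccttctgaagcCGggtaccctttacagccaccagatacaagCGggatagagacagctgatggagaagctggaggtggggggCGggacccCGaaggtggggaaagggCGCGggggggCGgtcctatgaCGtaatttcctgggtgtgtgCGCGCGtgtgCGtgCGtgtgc

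These sequences differed widely in CpG content. Over 300 bases, from 250 before to 50 after the start, Pcsk2 held 36 CG dinucleotides, an observed-to-expected ratio of 0.85, and Chga held 21, a ratio of 0.76. Pcsk1 held 13 with a ratio of 0.72 and Sst, which is not printed, 13 with a ratio of 0.71. The ratio was 0.42 at Gcg with 7, 0.27 at Iapp with 4 and 0.18 at Ppy with 4, and Ins1 held 0. RefSeq promoters were matched for 8 of the 9 genes, and the values above are those of the first promoter listed for each gene. In the classes below, a gene with several promoters entered with its highest ratio, so the measures can differ. Over the 16539 protein-coding genes with a promoter in the table, the median ratio was 0.79 at the 9985 genes with K4me3 in at least 4 of 6 mice and K27me3 in fewer, 0.24 at the 1419 with K27me3 in at least 4 and K4me3 in fewer, 0.69 at the 573 with both in at least 4, and 0.20 at the 4562 with neither. Read with that difference in measure, Pcsk1, Iapp and Ppy lay near the medians of the classes they fell in. Ins1, with K27me3 alone, lay below the lower quartile of its class, which was 0.10. Pcsk2 and Sst, with K27me3 alone, lay above the upper quartile of their class, which was 0.51, and Chga and Gcg, with neither mark in 5 mice, lay above that of theirs, which was 0.35.

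Short motifs were searched on both strands of the same 300 bases. TATAAA was found at Gcg, Ppy and Chga and at 13.6% of all 32851 promoters in the table. TGACGTCA, the full cyclic AMP response element, was found at Sst and Pcsk1 and at 1.79% of all promoters. GCCATCTG, an E box of the insulin genes, was found at Ins1 and at 1.32% of all promoters. TAATTA, a core of homeodomain sites, was found at none of the 8 and at 5.29% of all promoters. TGACGTCA and TAATTA read the same on both strands, and no motif contains another.

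The lists gave positions of peaks and no height or read count, so the depth of each library is unknown and every absence of a peak is an absence from a list. K4me3 lists held 17400 to 25886 peaks and K27me3 lists 21420 to 31274. Control replicate 2 stood apart, with the fewest peaks for both marks, K27me3 within 3 kb of a TSS at 24.6% of protein-coding genes against 10.7% to 15.7% in the other 5 mice, and 11.7% of its autosomal K27me3 peaks overlapping its own K4me3 peaks against 0.697% to 1.97%. The K27me3 list of EZH2ΔSET replicate 2 held 17 peaks on chromosome X against 5637 to 7367 in the other 5, whereas all 9 genes are autosomal. K4me3 at TSSs of 12 of 12 acinar genes in all 6 mice, against 57.5% of protein-coding genes, fitted the tissue label. It was not limited to acinar genes, as 5 of 5 duct genes had it in at least 4 mice, against 61.8% of protein-coding genes.

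K4me3 was nearly absent from the islet genes. Only Pcsk1, the convertase that makes the first cuts in proinsulin and other prohormones, carried it, in all 6 mice, and the other 8 genes carried it in none. Over all protein-coding genes, 57.5% had K4me3 in all 6 mice and 34.1% in none. In total, 6 of 54 gene-and-mouse pairs were called, or 11.1%, whereas a mean of 62.0% of all protein-coding genes was called per mouse. Without control replicate 2 the count was 5 of 45.

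**Figure D1:**
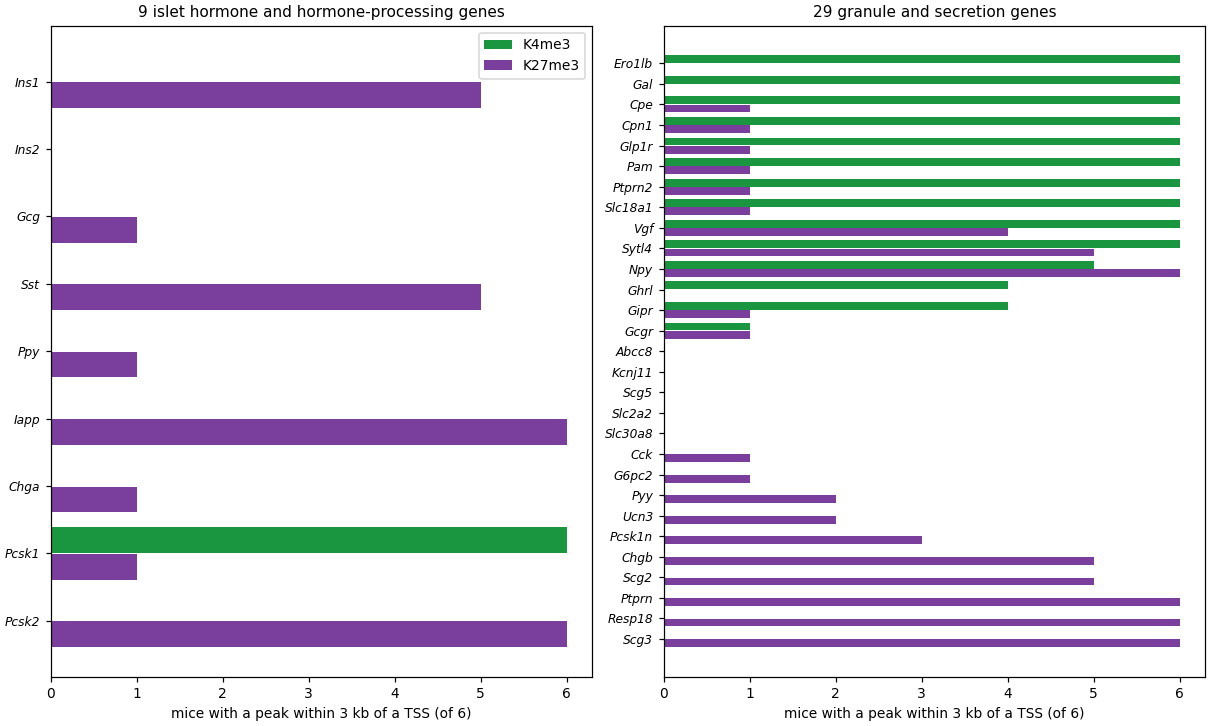
Number of mice, of 6, with a K4me3 peak (green) or a K27me3 peak (purple) within 3 kb of a TSS, for the 9 islet genes (left) and for 29 genes of secretory granules, peptide hormones and secretion (right). Pcsk1 is the one islet gene with K4me3, in 6 mice, and Iapp and Pcsk2 have K27me3 in 6 and Ins1 and Sst in 5.

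The K4me3 peak of Pcsk1 (chromosome 13, plus strand, main start at 75089826) was placed alike in each mouse. Its width was 1.85, 1.39 and 2.04 kb in control replicates 1 to 3 and 2.14, 1.94 and 2.08 kb in EZH2ΔSET tissue. The peak of control replicate 2 was the narrowest, and the genotypes overlapped. It began 0.257 to 0.622 kb upstream of the start and ended 1.14 to 1.60 kb downstream. The mean length was 2.05 kb ± 0.105 (SD, n = 3) in EZH2ΔSET and 1.76 kb ± 0.331 (SD, n = 3) in control tissue, a difference of 0.292 kb (exact permutation test, two-sided, n = 3 and 3, p = 0.200), which was 0.109 kb without control replicate 2. With 3 mice against 3 this test cannot give a p below 0.10. Over all protein-coding genes with any K4me3, EZH2ΔSET and control mice did not overlap at 11.3% of 14469.

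Ppy, the pancreatic polypeptide gene, was called for K4me3 in no mouse but had a peak just outside the window. A peak covered chromosome 11 from 102096793 to 102098011 in 5 of 6 mice, all but control replicate 2, downstream of the gene. The region is 3.30 kb from the Ppy start, 8.28 kb from that of Mpp2 and 9.40 kb from that of Pyy, the peptide YY gene. Its nearer edge lay 3.15 to 3.31 kb from the Ppy start, so the absence of a call rested on the 3 kb limit. In control replicate 2 the nearest K4me3 peak was 11.6 kb away.

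The remaining genes were far from K4me3. The nearest K4me3 peak to Ins1 was 773 kb away in all 6 mice, and it was 291 to 368 kb away at Pcsk2. The distance was 71.1 to 71.5 kb at Gcg, 46.7 to 46.8 kb at Iapp, 32.6 to 84.6 kb at Chga and 20.6 to 98.9 kb at Ins2. Sst had a closer one, a peak that ended 6.83 to 7.31 kb upstream of its start in every mouse. Of 23 neighbouring protein-coding genes with a start within 100 kb, 13 carried K4me3 in all 6 mice, such as Dpp4 near Gcg, Bcl6 near Sst, Pyroxd1 near Iapp, Mpp2 near Ppy and Itpk1 near Chga. Another 7 carried it in none, such as Fap near Gcg, Rtp2 near Sst, Slco1a5 near Iapp and Pyy near Ppy, so that the neighbours lay close to the shares of all genes, 57.5% and 34.1%.

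K27me3 split the islet genes. It was called in 26 of 54 gene-and-mouse pairs, or 48.1%, against a mean of 15.2% of all protein-coding genes per mouse. Without control replicate 2 the count was 20 of 45. Iapp and Pcsk2 were called in 6 mice, Ins1 and Sst in 5, Gcg, Ppy, Chga and Pcsk1 in 1, and Ins2 in 0. With 1 kb on either side of a start Pcsk2 was called in 3 mice, and with the most 5′ start alone or with equal numbers of the widest peaks Gcg was called in 0. With a window from 100 kb upstream, 35 of 54 pairs, or 64.8%, were called, with Ins2 in 6 mice and Gcg and Ppy in 2, against a mean of 36.3% of all protein-coding genes per mouse. Over all protein-coding genes, 8.37% were called in at least 5 mice and 66.6% in none. The number of the 9 genes called was 3, 6 and 4 in control mice and 4, 5 and 4 in EZH2ΔSET mice.

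**Figure D2:**
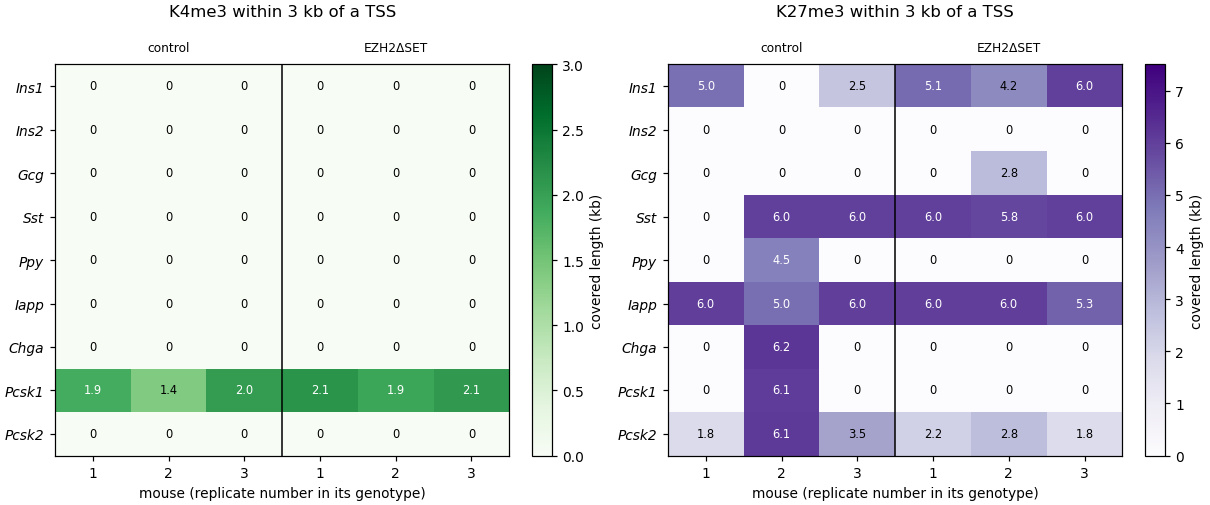
Length in kb covered by K4me3 peaks (left) and K27me3 peaks (right) within 3 kb of any TSS, for the 9 genes (rows) in 6 mice (columns, 3 per genotype). K4me3 fills the row of Pcsk1, K27me3 fills those of Iapp and Pcsk2 and leaves 1 empty mouse each at Ins1 and Sst, and Ppy, Chga and Pcsk1 have K27me3 only in control replicate 2.

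Among the hormone genes, Sst, which encodes the inhibitory peptide of delta cells, lay under K27me3 in every mouse but 1. The gene (chromosome 16, 23889573 to 23890958, minus strand) is shorter than any K27me3 peak of the lists. In control tissue the covered length was 0, 6.0 and 6.0 kb of the 6.0 kb window, and in EZH2ΔSET tissue it was 6.0, 5.85 and 6.0 kb. Only control replicate 1 lacked the mark, where the nearest K27me3 peak was 18.1 kb away, and the 5 called mice had the whole gene body covered. The peaks at Sst had a median width of 10.8 kb, the widest 26.2 kb. The mean length was 5.95 kb ± 0.0895 (SD, n = 3) in EZH2ΔSET and 4.00 kb ± 3.46 in control tissue, a difference of 1.95 kb (exact permutation test, n = 3 and 3, p = 1.00). Without control replicate 1 the difference was -0.0517 kb, and without control replicate 2 or 3 it was 2.95 kb.

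Iapp, the amylin gene of beta cells (chromosome 6, 142298423 to 142303961, plus strand), was covered to a similar extent. The length was 6.03, 5.0 and 6.03 kb in control tissue and 6.03, 6.03 and 5.26 kb in EZH2ΔSET tissue, so that the genotypes overlapped. Peaks at Iapp had a median width of 8.27 kb and a widest of 10.5 kb. The mean was 5.77 kb ± 0.441 (SD, n = 3) in EZH2ΔSET and 5.68 kb ± 0.591 in control tissue (exact permutation test, n = 3 and 3, p = 1.00). K27me3 covered 100%, 83.0% and 72.7% of the gene body in control mice and 56.2%, 100% and 80.7% in EZH2ΔSET mice. Slco1a5, a transporter gene that overlaps Iapp, had K27me3 at a TSS in 5 mice, and the peaks carry no strand.

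K27me3 reached the first base of the main transcript of Iapp in 6 mice and of Sst in 5, as it did in at least 5 mice at 3.49% of protein-coding genes. At Pcsk2, which makes the later cuts in proinsulin and the cuts in proglucagon, the mark was present in all 6 mice but beside the start rather than over it in 5.

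The length within 3 kb of a Pcsk2 start (chromosome 2, plus strand, main start at 143546156) was 1.84, 6.12 and 3.54 kb in control tissue and 2.19, 2.78 and 1.76 kb in EZH2ΔSET tissue. The 3 EZH2ΔSET mice were low, and control replicate 1 lay among them. The mean was 2.24 kb ± 0.512 (SD, n = 3) in EZH2ΔSET and 3.83 kb ± 2.15 in control tissue, a difference of -1.59 kb (exact permutation test, n = 3 and 3, p = 0.300). The difference was -0.443 kb without control replicate 2 and -2.58 kb without control replicate 1. The first base of the main transcript was covered only in control replicate 2. In the other 5 mice the nearest edge of a K27me3 peak lay 0.334 to 1.55 kb from the start.

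**Figure D3:**
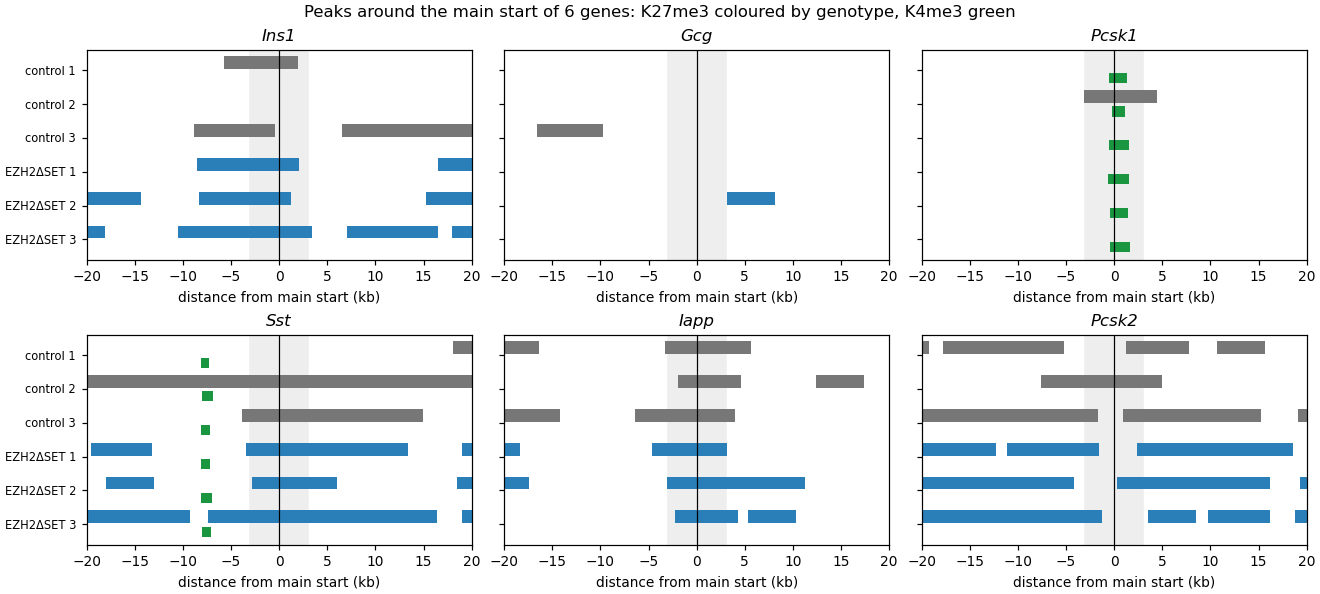
K27me3 peaks (coloured by genotype) and K4me3 peaks (green) within 20 kb of the main start of 6 genes, 1 row per mouse, with distance in kb from the start in the direction of transcription and the window of 3 kb on either side in grey. At Pcsk2 the start itself is free of K27me3 in 5 of 6 mice, at Sst it is covered in 5 and at Iapp in 6, and at Gcg the call in EZH2ΔSET replicate 2 comes from the window of a start 2.97 kb inside the gene.

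Ins1, the retroposed insulin gene of mouse and rat (chromosome 19, 52264297 to 52265476, plus strand), was marked by K27me3 in all mice but control replicate 2. The covered length was 4.96, 0 and 2.54 kb in control tissue and 5.09, 4.25 and 6.0 kb in EZH2ΔSET tissue. The EZH2ΔSET mice were high, and control replicate 1 lay among them. The mean was 5.11 kb ± 0.877 (SD, n = 3) in EZH2ΔSET and 2.50 kb ± 2.48 (SD, n = 3) in control tissue, a difference of 2.61 kb (exact permutation test, two-sided, n = 3 and 3, p = 0.200). The difference was 1.36 kb without control replicate 2 and 3.84 kb without control replicate 1.

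The groups at Ins1 came apart when each library was cut to the same number of its widest peaks, 21420 for K27me3. The control lengths were then 0, 0 and 2.54 kb, since control replicate 1 was called through peaks of 5001 bp, the smallest width in the K27me3 lists, and the EZH2ΔSET lengths stayed as they were. The difference was 4.27 kb (exact permutation test, n = 3 and 3, p = 0.10, the smallest this design allows), and 2.15% of the 6968 protein-coding genes with any K27me3 did not overlap under this cut.

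The mark at Ins1 differed in width between mice. Control replicate 1 had a pair of peaks of 5001 bp, one wholly upstream of the start and one that ended 1.96 kb downstream of it and covered the whole gene. In EZH2ΔSET tissue it began 8.29 to 10.5 kb upstream and ended 1.25 to 3.37 kb downstream of the start, and it covered the whole gene. In control replicate 3 it ended 0.464 kb short of the start. In control replicate 2 the nearest K27me3 peak was 397 kb away. The start of Ins1 was covered in 3 of 3 EZH2ΔSET mice and 1 of 3 control mice (Fisher's exact test, two-sided, n = 3 and 3, unadjusted p = 0.400).

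Gcg, the glucagon gene of alpha cells (chromosome 2, 62474530 to 62483650, minus strand), was nearly free of K27me3. The covered length was 0 kb in each control mouse and 0, 2.82 and 0 kb in EZH2ΔSET tissue. The single call, in EZH2ΔSET replicate 2, came from a peak of the smallest width that covered 54.8% of the gene body and entered the window of an annotated start 2.97 kb inside the gene, and the main start lay 3.15 kb from it. In the other 5 mice the nearest K27me3 peak was 9.73 to 229 kb away. The mean was 0.941 kb ± 1.63 (SD, n = 3) in EZH2ΔSET and 0 kb in control tissue (exact permutation test, n = 3 and 3, p = 1.00).

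**Figure D4:**
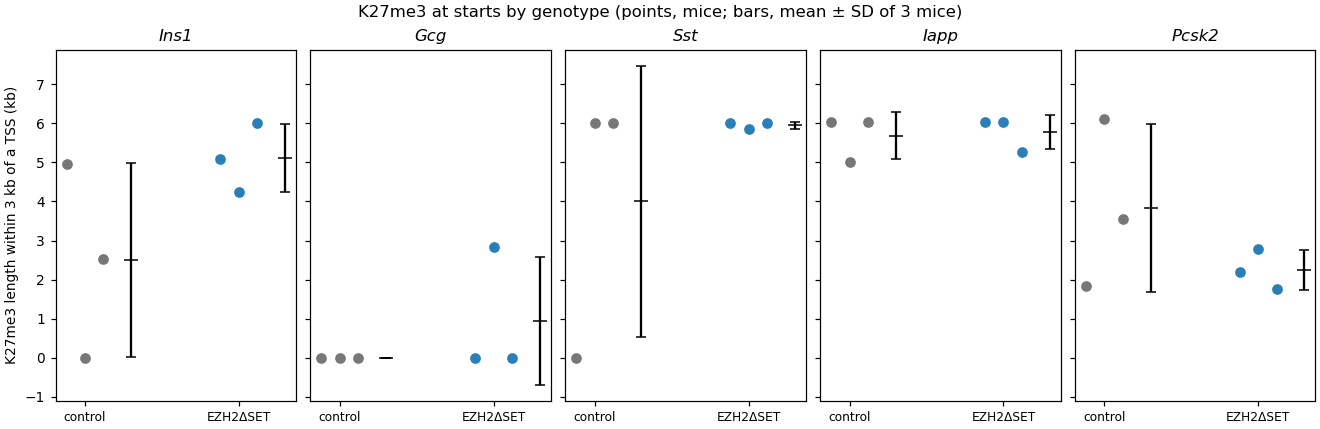
Length in kb covered by K27me3 within 3 kb of a TSS of 5 genes, by genotype. Points are mice, and black bars give the mean ± SD of 3 mice. The control and EZH2ΔSET mice overlap at all 5 genes, Gcg is at 0 in 5 of 6 mice, and Ins1 and Sst have 1 control mouse at 0 each.

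Taking the 8 islet genes with any K27me3 at a TSS, EZH2ΔSET and control mice overlapped at each. They did not overlap at 2.55% of the 7325 protein-coding genes with any K27me3, of which 163 were higher and 24 lower in EZH2ΔSET tissue, so a count of 0 of 8 is near the share of all genes. The median difference over the 8 genes was -0.714 kb, against -0.495 kb over all genes tested, and both medians were 0 kb without control replicate 2. Over gene bodies the groups overlapped at all 9 islet genes, and did not at 4.51% of 7045 genes. K27me3 was called at Ins1, Sst, Iapp and Pcsk2 in all 3 EZH2ΔSET mice, and in 2, 2, 3 and 3 control mice. Over the 9 genes, 13 of 27 gene-and-mouse pairs were called in each genotype. The mean share of all protein-coding genes called per mouse was 14.1% in EZH2ΔSET and 16.3% in control tissue. The share of all genes called in all 3 EZH2ΔSET mice was not computed.

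Chga, Ppy and Pcsk1 were called for K27me3 only in control replicate 2. The peaks were 6.36 kb wide at Chga, the gene for the granule protein chromogranin A, 12.8 kb at Ppy and 7.51 kb at Pcsk1. This library alone had a K27me3 call at 11.6% of protein-coding genes, or 2551, against 73 to 164 genes called alone in each of the other 5 mice. Pcsk1 in this mouse was also the only islet gene with both marks at a TSS in the same mouse, which 15.0% of protein-coding genes had in at least 1 mouse. In the other 5 mice the 9 genes held no such pair. The share of its autosomal K27me3 peaks that coincided with its K4me3 list was high, 11.7% as given above, and the part of K4me3 material in these calls was not tested. Chga and Ppy had no K4me3 peak within 3 kb of a TSS in this mouse.

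K27me3 was called over the gene body in 31 of 54 gene-and-mouse pairs, or 57.4%, against a mean of 16.3% of all protein-coding genes per mouse. Pcsk2, Iapp and Ins2 had it in all 6 mice, as did 5.07% of protein-coding genes. Pcsk2 spans 270 kb. K27me3 peaks covered 24.4%, 6.94% and 37.2% of it in control tissue and 43.6%, 34.5% and 41.4% in EZH2ΔSET tissue. Control replicate 2 was the lowest and control replicate 3 lay among the EZH2ΔSET mice. The mean length was 61.7 kb in control and 108 kb in EZH2ΔSET mice, a difference of 45.9 kb that was 24.4 kb without control replicate 2 (exact permutation test over all 6 mice, n = 3 and 3, p = 0.200).

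At Ins2, the ancestral insulin gene, the coverage lay far from the hormone-coding part. The annotated gene spans 64.7 kb on chromosome 7 only because it includes long transcripts that begin as far as 63.7 kb upstream, whereas the main transcript spans 1071 bp, and 0 of 6 mice had K27me3 in it. Peaks of all 6 mice shared 142726682 to 142732130, which begins 47.0 kb upstream of the main start. The covered share of the long gene body was 9.75%, 33.9% and 9.66% in control mice and 10.3%, 14.3% and 13.7% in EZH2ΔSET mice, with control replicate 2 the highest. The nearest K27me3 peak lay 12.4 to 47.0 kb from the main start, and only control replicate 2 had one 12.4 kb downstream of it, towards Igf2. Ins2 was therefore the islet gene with neither mark within 3 kb of a start in any mouse. With a window from 100 kb upstream to 3 kb downstream for K27me3, Ins2 was called in 6 of 6 mice, as were 15.5% of protein-coding genes.

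**Figure D5:**
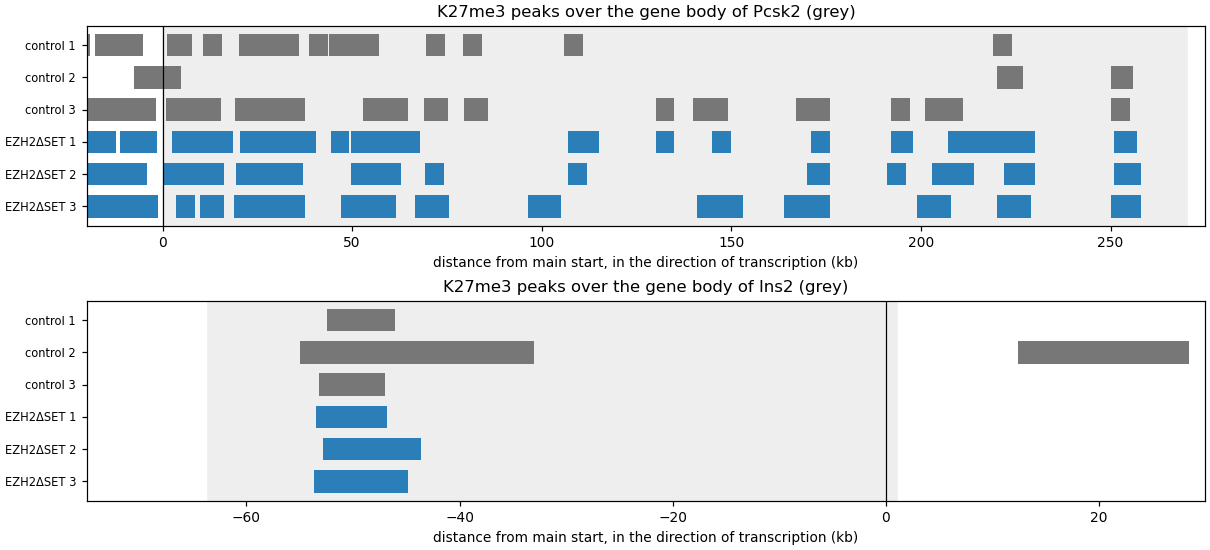
K27me3 peaks over the gene bodies (grey) of Pcsk2 (top) and Ins2 (bottom), 1 row per mouse coloured by genotype, with distance in kb from the main start in the direction of transcription. Peaks are spread along the 270 kb of Pcsk2 in 5 mice and are sparse in control replicate 2, and at Ins2 a peak about 50 kb upstream is shared by all 6 mice while the start is free.

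Genes of granules, peptide hormones and secretion other than the 9 also varied in their marks. Of 29 such genes, 13 had K4me3 in at least 4 of 6 mice, 8 had K27me3 in at least 4, 3 had both in the same mouse in at least 4, and 15 had K4me3 in no mouse. Over all protein-coding genes these shares were 61.8% for K4me3, 11.8% for K27me3 and 3.10% for both in at least 4 mice, and 34.1% for K4me3 in no mouse. The counts among the 9 genes were 1, 4, 0 and 8. Called for K4me3 in 6 mice were Cpe, the carboxypeptidase that trims prohormones, Cpn1, another carboxypeptidase gene, and Ero1lb, an oxidase of the endoplasmic reticulum, as was Pam, which amidates peptides. K27me3 was called in 6 mice at Npy, the neuropeptide Y gene, at Ptprn, which encodes a transmembrane granule protein, and at Resp18 and Scg3, and in 5 at Chgb and Scg2, which encode granins like Chga. Both marks were called in the same mouse at Npy and the X-linked Sytl4 in 5 mice and at Vgf in 4. Of the 29 genes, 5 had neither mark in any mouse, namely Slc30a8 (the granule zinc transporter), Slc2a2 (the glucose transporter GLUT2), Abcc8 and Kcnj11 (subunits of the KATP channel) and Scg5, and 17.4% of all protein-coding genes had the same absence. Other genes that beta cells use did have calls. Glp1r, the gene for the receptor for glucagon-like peptide, had K4me3 in 6 mice and K27me3 in 1. Ucn3 had K27me3 in 2 mice and G6pc2 in 1. Without control replicate 2, K27me3 was called in 0 mice at Glp1r and G6pc2 and in 1 at Ucn3.

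Of 11 islet transcription factor genes, 7 had K4me3 and 6 had K27me3 in at least 4 mice, and 4 had both, beside the same shares of 61.8%, 11.8% and 3.10% of all genes. Isl1 and Pax6 carried both in all 6 mice, and Nkx6-1 and Neurod1 in 5. Beside the same shares, markers of other cell types were called for K4me3 in at least 4 mice at 5 of 5 duct genes, 1 of 5 leukocyte genes, 2 of 4 stroma and vessel genes and 2 of 5 neuron genes, and for K27me3 at 0, 1, 0 and 3 of these lists.

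The pattern of calls over 6 mice and both marks, 12 calls per gene, was shared with other protein-coding genes for each member. Ins2 had the same 12 calls as 3809 others, Pcsk1 as 1699, Ppy and Chga as 513 each, Iapp and Pcsk2 as 500 each, Ins1 as 214, Sst as 155 and Gcg as 127. Scg2 was among the genes with the calls of Ins1, Chgb and Neurog3 among those of Sst, Cck, G6pc2 and Mafa among those of Ppy and Chga, and Ptprn, Resp18, Scg3, Snap25 and Stmn2 among those of Iapp and Pcsk2. First by name among the genes alike to Ins1 were 4930555G01Rik, 5830411N06Rik and 7420426K07Rik. For Sst they were 1700113H08Rik, 4921501E09Rik and 4921509C19Rik, for Gcg 1700024G13Rik, Abca12 and Aldoart1, for Ppy and Chga 1700067P10Rik, 1700069L16Rik and 2300002M23Rik, and for Pcsk1 0610040J01Rik, 1110004F10Rik and 1110017D15Rik.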

How the data were processed

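ChIP-Seq peak lists for K4me3 and K27me3 from 6 mice were used. Mice of other genotypes and 1 gene of the granule list are not reported here, so the planned comparisons of 6 mice with 6, and their alternatives, were not run. As the submitters' processing notes and the study's methods describe, the authors aligned reads to mm10 with Bowtie2 after FastQC and called peaks per mouse against its input with HOMER findPeaks in histone mode. The deposited files give each peak's position and a score, which is 1 for every peak. Depth and signal are not given, so numbers of peaks could not be scaled to depth, and input samples were not analysed here.

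Peaks were overlapped with GENCODE vM21 (55450 genes, of which 21951 protein-coding). A call needed 1 bp within 3 kb of any annotated TSS, and covered length is the union of peaks in these windows. The main start is that of the transcript numbered 201. Lengths were compared between 3 EZH2ΔSET and 3 control mice by exact two-sided permutation of mice (smallest p 0.10), and by whether the groups overlap. Alternatives were other windows (1 kb, 5 kb, and 100 kb upstream for K27me3), other starts, widths and overlaps, equal numbers of peaks and leaving out each mouse. Mice are the replicates. Shares of genes refer to protein-coding genes, and for tests to those with any covered length.

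The members and the gene lists (acinar, duct, leukocyte, stroma and vessel, neuron, islet transcription factors, granule and secretion) were chosen with earlier results of these data known. Named were all 9 members, the 3 genes of the granule list called in most mice for each mark and for both (ties by alphabet), the 3 genes with the fewest differing calls, and neighbours within 100 kb. The other named genes were picked from the lists after their values were seen. Promoter sequences are from RefSeq (GRCm38.p6). The code for covered length was tested on simulated intervals. The permutation code was tested on the measured K27me3 lengths, shuffled between mice within each gene, with a known difference added to some genes. The tools were scipy 1.17.1, pandas 2.3.3, matplotlib 3.10.9 and numpy 2.4.6 under Python 3.11.15.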

Additional observations from a re-analysis of the deposited data

How the results depend on the processing

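K4me3 calls at TSSs of the 9 genes rose from 6 to 11 with a window of 5 kb on either side, which takes in the peak downstream of Ppy. With K27me3 peaks of at least 10 kb, chosen after seeing the data, K27me3 calls fell from 26 to 12 at TSSs and from 31 to 13 over gene bodies (22.2% and 24.1% of pairs, against 7.64% and 8.33% of all protein-coding genes), and calls of both marks from 1 to 0, with Ins1 called in 2 mice and Iapp in 1. The comparison of EZH2ΔSET with control mice and its alternatives were also set after seeing the data. Its count of islet genes without overlap in K27me3 length, 0, became 1 (Ins1) with equal numbers of the widest peaks (17400 K4me3 and 21420 K27me3), where 2.15% of all genes did not overlap, and remained 0 with windows of 1 kb and 5 kb, with the main start only and with peaks of at least 10 kb. With the replicate number as a block, 1 gene, again Ins1, had the smallest p this exact permutation allows, 0.250, as had 4.85% of all genes with any K27me3. Whether the replicate numbers pair mice is not known. Of 3 pairs per mark, 0 for K27me3 and 2 for K4me3 correlated above 0.1, which is too few pairs to decide.

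Leaving out each mouse gave 5 to 5 K4me3 calls, 20 to 23 K27me3 calls and 0 to 1 calls of both marks at TSSs, and 24 to 27 K27me3 and 5 to 5 K4me3 calls over gene bodies. The count of islet genes without overlap was 0 to 2, namely Ins1 and Pcsk2 without control replicate 1, where 6.70% of all genes with any K27me3 did not overlap, and Ins1 without EZH2ΔSET replicate 2, where 7.36% did not. It was 0 without control replicate 2, where 12.7% of genes did not overlap, and without each of the others, where 4.68% to 5.31% did not. The sign of the EZH2ΔSET minus control difference changed for some genes. It turned negative at Sst without control replicate 1 (-0.0517 kb) and at Iapp without control replicate 2 (-0.254 kb) or EZH2ΔSET replicate 1 or 2 (-0.0405 kb each). Over gene bodies it turned positive at Iapp without control replicate 1 (0.0620 kb) or EZH2ΔSET replicate 1 (0.283 kb) and at Ins2 without control replicate 2 (2.00 kb). The planned minimum width of 5 kb removes no K27me3 peak. The lists carry no depth, so an absent peak cannot be told from a shallow library.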
